A study of Mus musculus with 6 samples.

Results

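The glial list of the *LncRNA-HIT* ChIRP-seq experiment held 255 peaks on mouse chromosome 10, of 2919 peaks in that list and 5799 peaks in the glial and limb lists together. They were chosen by chromosome alone, as every row of the glial list that lies on chromosome 10 of the genome build mm9. Chromosome 10 was picked because its glial peak count was known to be high, so that count, and the scores that came with it, are given here as a description with no test. The study had 6 libraries, 3 from the distal limb bud of Swiss Webster mouse embryos at E 11.0 and 3 from a murine glial cell line. In each tissue 1 library was pulled down with the odd probe set, 1 with the even probe set, and 1 was the input chromatin. The labels give the glial cells as embryonic brain of Swiss Webster mice at E 11.0, whereas the protocol text gives E15.5. According to the labels the glial cells do not express the RNA, which is also named Hotchon there. The labels give no treatment and no genetic change for either tissue. The glial line is 1 cell line, the limb chromatin was pooled from many embryos, and no expression values were analysed here, so the glial identity could not be checked against marker genes. Each tissue had 1 peak list made from its merged odd and even libraries, so there were no replicates, the read depth under a peak is not known, and no difference between tissues could be tested. The score of a peak is given as −log10 of the p-value that the peak caller assigned to it.

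ChIRP uses biotin-tagged DNA probes, complementary to 1 RNA, to isolate the chromatin bound by that RNA. *LncRNA-HIT* is a long noncoding RNA transcribed from the HoxA cluster next to *Hoxa13* and *Hoxa11*, which pattern the distal limb. The glial line was the control for probes that hybridize to chromatin in the absence of the RNA, which they can do where genomic DNA resembles a probe. The 25 probes were searched for, on both strands, in each glial peak of chromosome 10. A run of at least 12 adjacent bases identical to a probe was found in 5 of the 255 peaks, and the longest such run had 13 bases. These 5 sites, in genes chosen after the values were seen, are printed because they hold the longest uninterrupted runs shared with a probe among the glial peaks of the chromosome. The matching run is in capitals, and it is flanked by 25 bases of mm9 on either side, read 5′ to 3′ on the strand that matches the probe.
Hace1 intron, chr10:45399300-45399362, minus strand: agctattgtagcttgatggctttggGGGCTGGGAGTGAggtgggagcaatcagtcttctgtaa
Arid5b intron, chr10:67579944-67580005, plus strand: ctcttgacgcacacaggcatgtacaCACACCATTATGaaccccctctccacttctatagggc
Trdn intron, chr10:33099282-33099343, minus strand: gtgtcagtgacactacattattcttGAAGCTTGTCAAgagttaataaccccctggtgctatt
Eya4 intron, chr10:22949787-22949848, plus strand: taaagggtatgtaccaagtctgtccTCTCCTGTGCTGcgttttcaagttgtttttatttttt
Slc6a15 intron, chr10:102838734-102838795, minus strand: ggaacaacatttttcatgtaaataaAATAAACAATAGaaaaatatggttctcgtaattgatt
The probes with those runs, again in capitals, were the following.
Probe 16, Hace1 site: gtgaGGGCTGGGAGTGAatg
Probe 21, Arid5b site: agattgCACACCATTATGgg
Probe 11, Trdn site: GAAGCTTGTCAAcacgaggt
Probe 25, Eya4 site: acacaataTCTCCTGTGCTG
Probe 24, Slc6a15 site: gggggccAATAAACAATAGc

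All 5 runs lay in introns. *Hace1* encodes a ubiquitin ligase, and its peak had a score of 41.9. *Arid5b* encodes a DNA-binding transcriptional coregulator, and its peak scored 111. *Trdn* encodes triadin, a protein of muscle calcium release, and its peak scored 50.9. In the *Trdn* peak 81.9% of the 24-base words occurred more than once in the genome. The peaks in *Eya4*, a transcriptional coactivator gene, and *Slc6a15*, an amino acid transporter gene, scored 48.0 and 14.96. The 5 peaks were 1.96% of the 255 (95% Wilson interval 0.84% to 4.51%), beside 2.81% of the whole glial list and 8.55% (5.07% to 14.1%) of the 152 limb peaks of chromosome 10. These intervals, and all others given here, cover counting error only. By another measure, a match of 15 of the 20 probe bases in any position, 30 of the 255 peaks matched (11.8%, 8.37% to 16.3%), beside 12.4% of the whole glial list and 17.1% (26 peaks) of the limb peaks of the chromosome. Of the 5 peaks with a run, the *Hace1* peak was among these 30 and the other 4 were not. Probes of both sets matched at 15 of 20 bases in 2 of the 255 peaks, beside 11 of 2661 glial peaks elsewhere and none of the 152 limb peaks of chromosome 10. They lay 31.7 kb downstream of *Iyd*, with a score of 124, and 266 kb from *Ctnna3*, with a score of 28.3. The share of peaks with a probe match on chromosome 10 was therefore close to that of the whole glial list.

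In base composition the peaks were close to their surroundings. The central 120 bases of 5 peaks are shown. The first 4 carry the highest scores among the peaks with less than 10% repeated 24-base words, and the last is the strongest peak of *Btbd11*, the gene with most glial peaks on the chromosome. All are given on the plus strand of mm9, with the dinucleotide CG in capitals.
Iyd, downstream, chr10:6759702-6759821: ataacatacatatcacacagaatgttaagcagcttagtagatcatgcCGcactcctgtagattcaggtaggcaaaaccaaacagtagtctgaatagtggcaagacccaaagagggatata
D630037F22Rik, nearest gene, chr10:55056590-55056709: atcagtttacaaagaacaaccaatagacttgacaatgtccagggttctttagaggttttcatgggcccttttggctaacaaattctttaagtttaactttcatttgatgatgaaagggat
Iyd, intron, chr10:6799941-6800060: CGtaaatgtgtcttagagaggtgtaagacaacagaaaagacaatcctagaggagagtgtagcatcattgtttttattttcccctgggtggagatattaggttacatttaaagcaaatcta
P4ha1, intron, chr10:58808565-58808684: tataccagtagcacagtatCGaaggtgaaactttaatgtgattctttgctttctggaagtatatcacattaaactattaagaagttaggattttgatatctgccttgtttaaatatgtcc
Btbd11, intron, chr10:85086152-85086271: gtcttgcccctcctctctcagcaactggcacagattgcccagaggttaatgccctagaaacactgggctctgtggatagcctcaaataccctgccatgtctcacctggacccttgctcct
The first of these stretches lay in the peak with a score of 124, and the others had scores of 105, 91.9, 89.6 and 77.8. Each whole peak had 2 to 4 CG dinucleotides, and a median of 3 was found over the 255 peaks. The GC content of the 255 peaks had a median of 41.9%, beside 41.8% in the 3 kb on either side, 42.6% in the glial peaks elsewhere and 43.3% in the limb peaks of chromosome 10. No CG at all was found in 29 of the 255 peaks (11.4%), beside 10.6% of the glial peaks elsewhere and 5.26% of the limb peaks of chromosome 10. Few of the peaks were in repeated sequence. Less than 10% of repeated words was found in 182 peaks (71.4%, beside 69.6% of the other glial peaks), and more than 50% in 4 peaks (1.57%, beside 6.46%).

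Chromosome 10 had the most glial peaks of any chromosome and the highest density of any autosome. The 255 peaks were 8.74% of the glial list, whereas the known sequence of chromosome 10, 126.8 Mb, was 5.30% of the autosomal sequence. This was 2.01 peaks per Mb, and the other 18 autosomes ran from 0.931 on chromosome 2 to 1.503 on chromosome 15, with a median of 1.07. At the pooled density of the other autosomes 144 peaks would lie on the chromosome, so 111 lay above that number. The density relative to the other autosomes was 1.77 (95% interval 1.56 to 2.01). The limb list did not have this excess. Its 152 peaks on chromosome 10 were 5.28% of the limb list and 1.20 per Mb, and the density relative to the other autosomes was 1.03. Chromosome 10 thus had 1.68 glial peaks for each limb peak, beside 0.974 over the other autosomes pooled and 1.55 on chromosome 19, the next highest autosome. On the Y chromosome, with 35 glial and 21 limb peaks, the ratio was 1.67. The sequence available for unique mapping was much the same, since 81.4% of 24-base words on chromosome 10 occurred once in the genome, beside 80.1% on the other autosomes.

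**Figure D1:**
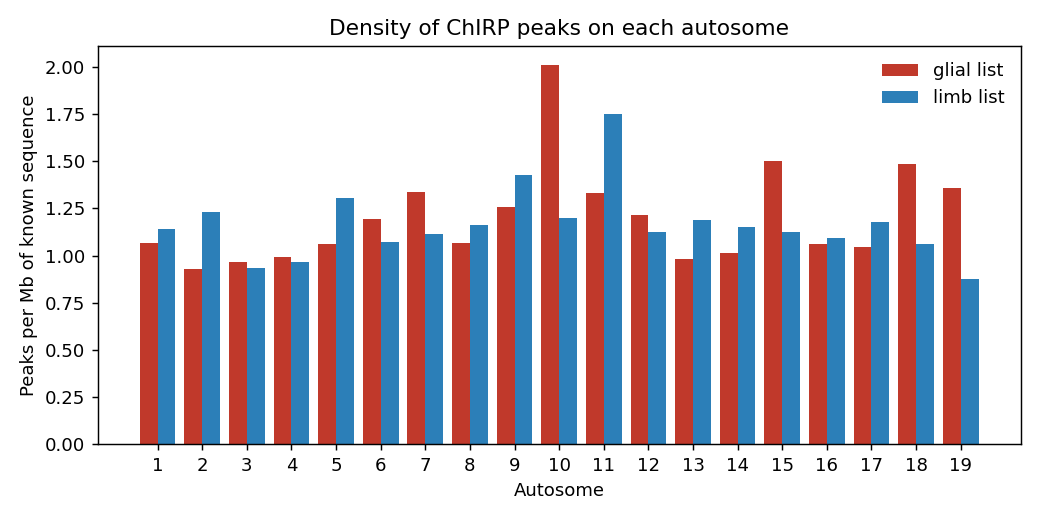
Peaks per Mb of known sequence on each of the 19 autosomes, with red bars for the glial list and blue bars for the limb list. The glial bar of chromosome 10 stands at 2.01 per Mb and the next highest glial bar, chromosome 15, at 1.503, whereas the limb bar of chromosome 10 stands at 1.20.

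The excess was not held in 1 window or a few windows of the chromosome. Chromosome 10 was divided into 25 windows of 5 Mb from its first known base, and every window had at least 4 glial peaks. The remaining 1.99 Mb at the distal end, with 2 glial peaks and 1 limb peak, made no whole window and were left out of these counts. The median was 9 peaks per window and the highest number was 17, whereas the 448 windows of the other autosomes had a median of 5. In 23 of the 25 windows (92.0%) the count was above that median, beside 45.1% of the windows elsewhere. The windows from 58 to 63 Mb and from 83 to 88 Mb had 17 peaks each, or 6.67% of the 255, and the window from 18 to 23 Mb had 16. The window from 28 to 33 Mb had 4 peaks, the lowest number, and that from 98 to 103 Mb had 5. The richest window of the other autosomes held 6.02% to 21.5% of the peaks of its chromosome, with a median of 9.66%. How even the counts were depended on the window size. The variance of the glial counts on chromosome 10 divided by their mean was 1.39 with windows of 5 Mb, the 14th highest of the 19 autosomes, whereas it was 1.57 with windows of 2 Mb, the 10th highest, and 2.09 with windows of 10 Mb, the 7th highest. The medians of the other autosomes were 1.71, 1.56 and 1.42 in the same order. Without the richest window the relative density was 1.72.

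**Figure D2:**
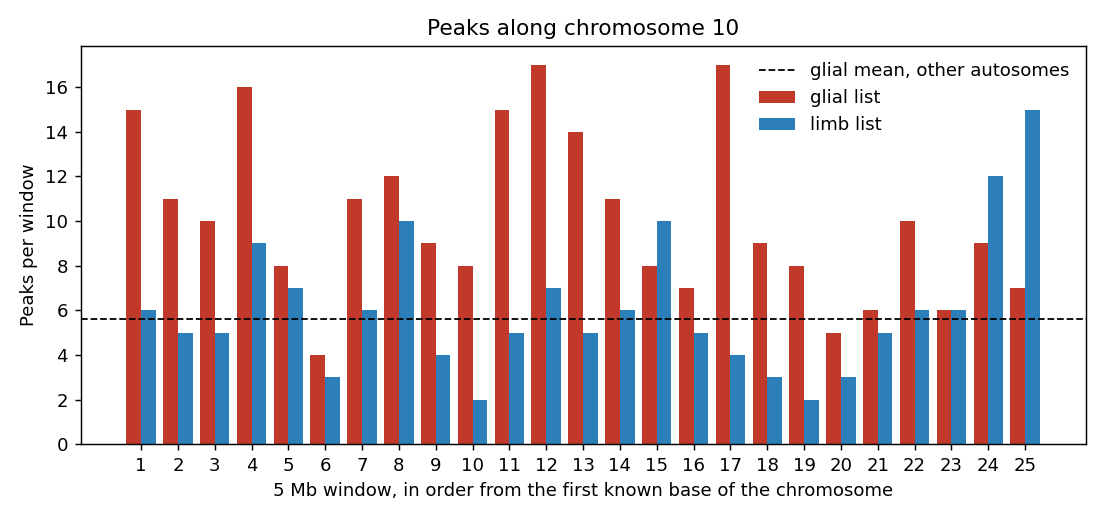
Number of glial peaks (red bars) and limb peaks (blue bars) in each of 25 windows of 5 Mb along chromosome 10, in order from its first known base; the dashed line is the mean of 5.63 glial peaks per window on the other autosomes. Glial peaks outnumbered limb peaks in 21 windows, and windows 24 and 25 had more limb peaks (12 and 15) than glial peaks (9 and 7).

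Glial and limb peaks followed each other only loosely from window to window. The glial count was higher than the limb count in 21 windows, equal in 1 and lower in 3. Spearman's rho between the counts was 0.24 over the 25 windows, a description only, since windows of 1 chromosome are not independent. With GC content rho was 0.32 for the glial and 0.53 for the limb counts. The first glial peak began at position 3223246 and the last ended at 128819976. Neighbouring glial peaks were separated by a median of 321 kb, from 143 bp to 3.67 Mb, and the widest gap ran from 26838528 to 30506270, beginning at the peak in *Lama2*. The limb peaks were separated by a median of 527 kb and at most 6.47 Mb.

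The ratio of glial to limb peaks was lower at the distal end of the chromosome than in the rest, as on most other autosomes. The known sequence was divided into 4 equal parts, a division made after the window counts had been seen. From the proximal to the distal part, there were 71, 76, 63 and 45 glial peaks and 35, 38, 31 and 48 limb peaks. The ratio of glial to limb peaks was 2.03, 2.00 and 2.03 in the first 3 parts and 0.938 in the last. Relative to the other autosomes the glial density was 1.97, 2.11, 1.75 and 1.25, and the limb density 0.947, 1.03, 0.838 and 1.30. The first 3 parts, up to 98.2 Mb, held 210 of the 255 glial peaks (82.4%) and 104 limb peaks. Among the 72 equal parts of the other autosomes, the ratio ran from 0.529 to 2.36 with a median of 0.971, and 3 parts reached 2, on chromosomes 19, 15 and 4. The last part had the lowest ratio of the 4 on every other autosome except chromosomes 3, 11, 15, 16, 17 and 19. The glial density in the last part of chromosome 10 was thus nearer to that of the other whole autosomes than in the first 3 parts. The limb density was higher there than in the first 3 parts. Among last parts alone, the ratio of 0.938 on chromosome 10 was exceeded only on chromosomes 7, 12, 15, 16 and 19. Coverage of the input libraries and the copy number of the chromosome in the glial line were not analysed here.

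**Figure D3:**
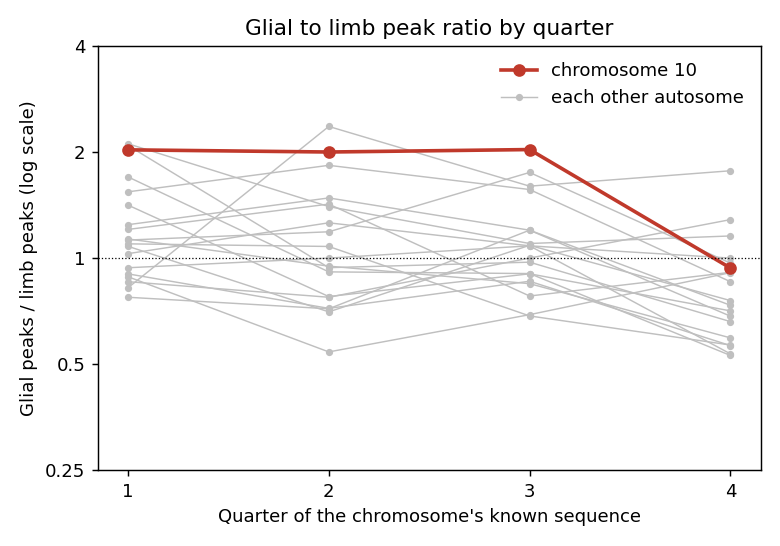
Glial peaks divided by limb peaks (log axis) in each of 4 equal parts of the known sequence of every autosome, from the proximal end (1) to the distal end (4), with chromosome 10 in red and each other autosome in grey. Chromosome 10 stays at 2.03, 2.00 and 2.03 and falls to 0.938 in the last part, where most other autosomes also have their lowest ratio.

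The excess was smaller among the peaks of high score. The 255 scores ran from 7.63 to 310, with quartiles of 15.6 and 49.2 and a median of 27.9. This was the lowest median of any autosome, the others running from 28.3 on chromosome 8 to 39.3 on chromosome 1. Its 95% interval, 25.6 to 33.4, covered the medians of most other autosomes. A p-value of 5.9e-57, a score of 56.2, is where the study separated strong limb peaks from the rest. It was reached by 40 of the 255 peaks (15.7%, 11.7% to 20.7%), beside 24% of the whole glial list. On the other autosomes this share ran from 16.5% on chromosome 8 to 29.4% on chromosome 12. The limb peaks of chromosome 10 had a median of 31.9, and 37 of the 152 (24.3%) reached this p-value, beside 26.9% of the limb list. Among peaks at this threshold the glial density of chromosome 10 relative to the other autosomes was 1.15 (0.835 to 1.58), in place of 1.77 over all peaks. By score, chromosome 10 held 7.59% of the autosomal glial peaks below 10 (5.06% to 11.2%), 9.81% of those from 10 to 20, 11.8% of those from 20 to 30, 7.10% of those from 30 to 40, 12.1% of those from 40 to 50 and 10.8% of those from 50 to the threshold. From the threshold to 75 its share was 5.06%, and above 75 it was 7.66%. The bands divide the count for which the chromosome was picked, so no share was tested against the 5.30% of autosomal sequence on it. In the limb list the same bands gave 4.23% to 5.99%.

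**Figure D4:**
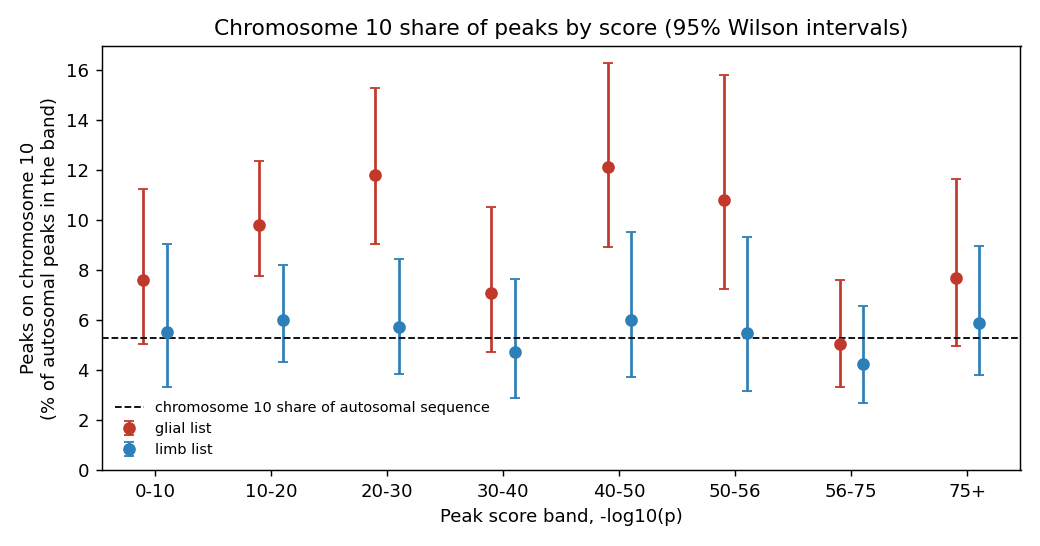
Share of autosomal peaks that lay on chromosome 10, in percent, by band of peak score, with red points for the glial list, blue points for the limb list and bars for 95% Wilson intervals; the dashed line is the 5.30% of autosomal sequence on the chromosome. Glial points reach 12.1% in the band from 40 to 50 and stand at 5.06% in the band from the threshold of 56.2 to 75 and at 7.66% above it, whereas all limb points lie between 4.23% and 5.99%.

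The scores also changed along the chromosome. From the proximal to the distal part the median glial score was 42.7, 26.1, 22.6 and 27.4, and the number of peaks at the threshold was 17, 10, 7 and 6. The limb medians were 33.6, 43.0, 23.95 and 31.5. Relative to the threshold peaks of the other autosomes, the glial density was 1.95, 1.15, 0.802 and 0.688. The peaks of high score were thus above the level of the other autosomes mainly in the proximal part, whereas the excess of all peaks reached through the first 3 parts. That level is of whole autosomes, not of their proximal or distal parts. With 6 to 17 threshold peaks in a part, these densities are imprecise.

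Of the 10 strongest glial peaks of the chromosome, 5 lay in the first of the 4 parts, 3 in the second, 2 in the third and none in the last. The strongest, chr10:21861946-21862978, had a score of 310, a value shared by 10 peaks of the glial list, and lay 1.25 kb downstream of *E030030I06Rik*. In this peak 46.4% of the 24-base words were repeated. The second, with a score of 153, lay 327 kb downstream of *Frk*, a tyrosine kinase gene, with 51.3% of repeated words. The third, with a score of 140, lay 2.41 kb downstream of *Ric8b*, a chaperone of G protein alpha subunits. Of the others, a pair belonged to *Iyd*, which encodes the deiodinase that recycles iodide in the thyroid, with scores of 124 (31.7 kb downstream) and 91.9 (intron). The peak in the *Arid5b* intron scored 111, and that 677 kb from *D630037F22Rik* scored 105. The peak 162 kb upstream of *Cited2*, a partner of CBP and p300, scored 93.7, with 44.9% of repeated words. The last of the 10 were in an intron of *P4ha1*, a subunit of the enzyme that hydroxylates collagen (89.6), and 360 kb from *Amd2*, an enzyme gene of polyamine synthesis (83.5). Only *Arid5b*, *Iyd* and *P4ha1* had 1 of these peaks inside the gene, and 7 of the 10 were intergenic.

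Glial peaks on chromosome 10 seldom coincided with limb peaks. An overlap of at least 1 bp with a limb peak was found for 5 of the 255 (1.96%, 0.84% to 4.51%), beside 3.56% of the whole glial list. At the threshold 2 of 40 peaks overlapped a limb peak (5.00%, 1.38% to 16.5%), beside 9.70% of the threshold peaks on the other chromosomes. The peak near *E030030I06Rik* scored 310 in the glial list and 65.6 in the limb list. The *Arid5b* intron peak scored 111 in the glial list and 76.9 in the limb list, and it also carried 1 of the 12-base probe runs. A peak 43.2 kb upstream of *Hsf2*, a heat shock transcription factor gene, scored 46.5 in the glial list and 106 in the limb list, with no repeated words. An intergenic peak 880 kb downstream of *Nmbr*, the neuromedin B receptor gene, scored 37.5 and 17.2. The peak in an intron of *Ank3*, which encodes the ankyrin of the axon initial segment, scored 13.5 and 23.95. The shared peaks therefore covered a wide range of scores in the glial list. Scores were assigned within each list, so glial and limb values are set side by side only. The distance from a glial peak to the nearest limb peak had a median of 301 kb, beside 308 kb on the other autosomes, and 22 peaks (8.63%) had a limb peak within 25 kb, beside 9.44%.

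Some of the peaks lay close together. When peaks less than 10 kb apart were counted as 1 place, the 255 peaks made 227 places, and 45 peaks (17.6%) were in groups of 2 or more. On the other autosomes together this was 22.6%, from 13.2% to 36.7% by chromosome. There were 8 groups of 3 or more peaks, beside 53 on the other 18 autosomes together, where the number ran from 1 to 8 by chromosome. None of the 8 contained a limb peak. The largest was in an intron of *Btbd11*, where 5 peaks lay within 5.91 kb, from 85080522 to 85086428. Its outer peaks scored 70.3 and 77.8 and the inner ones 13.2, 8.32 and 8.18. The others lay in *Pde7b*, *Gcc2* and *Syt1*, and nearest to *Iyd*, *Gm9766*, *D630037F22Rik* and *Phlda1*; *Gm9766* and *Phlda1* are named only for this position. Counting each place once gave a relative density of 1.83.

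By position relative to genes, the glial peaks of chromosome 10 had shares near those of the rest of the list. Of the 255 peaks 130 were intergenic (51.0%), 97 in introns (38.0%), 19 over exons (7.45%) and 9 within 2 kb of a transcription start outside exons (3.53%). The glial peaks elsewhere had 53.2%, 32.7%, 8.82% and 5.29%, and the limb peaks of chromosome 10 had 57.9%, 34.2%, 5.26% and 2.63%. A protein-coding gene contained 122 peaks (47.8%, 41.8% to 54.0%), and such genes cover 39.9% of the chromosome. For the glial peaks elsewhere the share was 42.2%, with 39.6% of the other autosomes covered by coding genes, and for the limb peaks of chromosome 10 it was 41.4%. A coding gene was more than 100 kb away from 67 peaks (26.3%, beside 26.1% elsewhere), and the farthest lay 1638 kb from *Grik2*. Coding sequence was touched by 12 peaks. Of these the strongest, chosen after the values were seen, was in *Utp20*, a ribosome assembly gene, with a score of 82.0, followed by *Ifngr1*, the interferon gamma receptor gene, with 62.0. Among the promoter peaks the strongest, chosen in the same way, were at *Gcc2* with 82.0, *Pde7b* with 69.7 and *Csnk1g2*, a casein kinase gene, with 69.6. Each of these peaks lay at a transcription start inside its gene, whereas a peak 513 bp upstream of *Pde7b* scored 55.9.

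Of the 1045 protein-coding genes of chromosome 10, 89 (8.52%) had a glial peak inside the gene, beside 4.14% of the 20373 coding genes of the other autosomes. The chromosome was picked for its high peak count, so this higher share is not a separate result about its genes. A limb peak lay inside 52 of the 1045 genes (4.98%), and 20 genes had both, which is 22.5% of the glial and 38.5% of the limb genes. Genes with a glial peak had a median length of 98.8 kb and those without one 13.3 kb. The 89 genes had 1 peak in 72 cases, 2 in 11 and 3 or more in 6. *Btbd11*, a gene for a protein with BTB and ankyrin domains, had 8 glial peaks over 273 kb and no limb peak. In order along the gene their scores were 10.7, 35.9, 70.3, 13.2, 8.32, 8.18, 77.8 and 54.8, and the last lay over coding sequence. These 8 peaks were among the 17 of the window from 83 to 88 Mb. *Ctnna3*, which encodes the cell adhesion protein alpha-T-catenin, had 7 peaks over 1574 kb, and none reached the threshold. Their scores were 24.2, 8.55, 38.1, 22.6, 26.3, 17.1 and 24.7, and its 4 limb peaks scored 65.8, 42.9, 53.5 and 72.7 in the limb list. None of these glial and limb peaks overlapped.

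*Pde7b*, a cyclic AMP phosphodiesterase gene, had 4 glial peaks with scores of 69.7, 40.9, 11.3 and 8.65, and 2 limb peaks with 14.7 and 92.3. *Syt1*, the calcium sensor gene of synaptic vesicle release, had 4 glial peaks with 19.4, 31.2, 61.6 and 11.1 and no limb peak. *Gcc2*, a gene for a protein of the Golgi, had 3 glial peaks in 50.1 kb, with 82.0, 27.3 and 11.0, and no limb peak. *Ank3* had 3 glial peaks with 11.0, 7.84 and 13.5, and the limb peak of 23.95 that overlapped the last of them. Per length, among these 6 genes only, *Gcc2* had the highest number, 5.99 glial peaks per 100 kb, followed by *Btbd11* with 2.93, and *Ctnna3* the lowest with 0.445. A share of 0.574% of the coding genes of chromosome 10 had 3 or more glial peaks, beside 0.295% of those on the other autosomes. This difference too is not separate from the peak count for which the chromosome was picked.

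**Figure D5:**
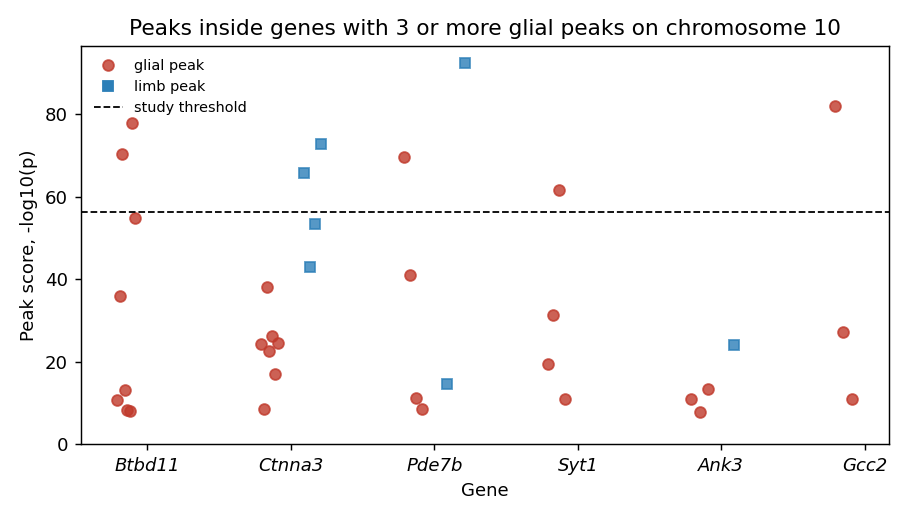
Score, as −log10(p), of every glial peak (red circles) and limb peak (blue squares) inside the 6 genes of chromosome 10 with 3 or more glial peaks; the dashed line is the threshold of 56.2. In *Btbd11* 2 of 8 glial peaks are above the line, and in *Ctnna3* none of the 7 glial peaks is, the highest being 38.1; scores of the separate lists are shown side by side only.

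For 4 lists of genes, the number with a glial peak within 25 kb was counted, beside 14.9% (156) of all 1045 coding genes of chromosome 10 and 9.86% (103) for limb peaks. The lists held 59 genes of the chromosome, of which 14 had a glial and 12 a limb peak. Of 9 glial lineage genes, 1 had a glial peak and none a limb peak. This was *Nr2e1*, a nuclear receptor gene of neural stem cells, 1.58 kb from a peak with a score of 16.3 that lay at the start of *Ostm1*. The other 5 genes of that list, *Aqp4*, *Gfap*, *Olig2*, *Slc1a3* and *Sox10*, are on other chromosomes. Of 16 genes of the axon and synapse, 7 had a glial peak and 5 a limb peak, and the genes of this list had a median length of 292 kb. Besides *Ctnna3* and *Syt1*, the 7 were *Grik2*, a kainate receptor gene (14.6), *Pcdh15*, a protocadherin gene (9.39 and 47.1), *Anks1b* (12 and 17.2), *Grip1*, which encodes a scaffold of AMPA receptors (43.1), and *Srgap1*, a gene of Slit and Robo signalling (10.7 and 54.6). Only *Syt1* among the 7 had a peak at the threshold.

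Of 20 genes of growth and the cell cycle, 3 had a glial peak and 3 a limb peak. The histone deacetylase gene *Hdac2* had glial peaks of 34.2 and 63.4, the receptor tyrosine kinase gene *Ros1* had 1 of 25.6, and *Kitl*, which encodes the ligand of the Kit receptor, had 1 of 82.3. None of them had a limb peak within 25 kb, and the 3 limb genes were *Myb*, *Foxo3* and *Cdk1*. Of 16 genes of the extracellular matrix, 3 had a glial peak and 4 a limb peak. The laminin gene *Lama2* had a glial peak of 21.5 over coding sequence and a limb peak of 37.1 elsewhere in the gene. *Kera* and *Epyc*, neighbouring genes for small proteoglycans, shared 1 glial peak of 13.9. The other limb genes of the list were *Ctgf* (58.4), *Col18a1* (8.31) and *Wif1* (8.94). The shares of the growth and matrix lists, 15% and 18.8%, were near the 14.9% of all genes. That of the axon and synapse list, a list of long genes, was 43.8%. Whether gene length has a part in that share was not tested.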

How the data were processed

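ChIRP-seq peaks of the E 11 limb and of a glial cell line were used. As stated in the methods and labels, the authors kept uniquely mapping reads on mm9 (bowtie 0.12.9), normalized them to total reads, merged the odd and even tracks by their minimum and called peaks against input with MACS, whose version is not given in the sources used here. The deposited score gives the p-value of a peak as 10 times −log10(p). It was divided by 10 and ranked within a list only, glial and limb scores being set side by side. How deeply each library was sequenced is unknown, and it could change which peaks were called.

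Peaks were placed on NCBIM37 (mm9) and GENCODE M1 genes. Exons took precedence over promoters (2 kb on either side of a start), introns and intergenic sequence. Densities are per Mb without unknown bases. Repeated sequence is the share of 24-base words found at further places of the genome, both strands counted, and the probe comparison allowed no gaps. Shares have 95% Wilson intervals. No test was made, because each tissue has 1 merged list and the chromosome was chosen from it. The members and lists were chosen with earlier results of these data known. Named genes were those at the 10 strongest peaks, those with 3 or more peaks inside, those at peaks shared with the limb, and listed genes within 25 kb of a peak. Genes at probe runs, groups of peaks, exon or promoter peaks and pairs of peaks were named after their values were seen. The count of repeated words was tested on simulated data. Alternatives were other thresholds, windows, denominators, overlaps, promoter widths, distances and match lengths. Python 3.11.15, numpy 2.4.6, pandas 2.3.3, scipy 1.17.1, numba 0.67.0, pysam 0.24.0 and matplotlib 3.10.9 were used.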

Additional observations from a re-analysis of the deposited data

How the results depend on the processing

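The density of glial peaks on chromosome 10 relative to the other autosomes, 1.77, was between 1.72 and 1.83 when counted at a p-value of 1e-20, per whole or unique length, with neighbouring peaks counted once, without the richest window, or in peaks low in repeats. It was 1.15 among peaks at a p-value of 5.9e-57. By part of the chromosome, an alternative chosen after seeing the data, it was 1.94 in the first 3 of 4 equal parts and 1.25 in the last. The richest window held 6.67% of the peaks, 4.31% with windows of 2 Mb, 12.5% with windows of 10 Mb and 12.5% at the p-value of 5.9e-57. At that p-value the richest of the 4 parts held 42.5% (28.5% to 57.8%), also chosen after seeing the data. The mean score was 36.3 in place of the median of 27.9. The share of peaks overlapping a limb peak was 5.00% at that p-value in place of 1.96%. The share matching a probe was 1.96% by a run of 12 bases in place of 11.8%, a separate criterion that 4 of its 5 peaks met without the other. The share in the richest window moves with window size by construction, and for the others the cause was not tested. The share of intergenic peaks, 51.0%, was between 48.6% and 55.0%, and the number of listed genes with a peak, 14 within 25 kb, was 11 inside genes and 18 within 50 kb. No paired analysis was possible because the odd and even libraries were merged into 1 list per tissue, and for the same reason no library could be left out. With 40 peaks at the p-value of 5.9e-57, shares among them are imprecise.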

Other observations

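The starts of the glial peaks fell on a grid of 25 bp. Of the 255 peaks on chromosome 10, 254 (99.6%) had a start, counted from 0 as in the deposited lists and so 1 below the starts printed above, whose remainder after division by 25 was 20 to 24, as did 98.4% of the whole glial list and 98.2% of the limb list. On chromosome 10, 11 genes had 2 glial peaks inside the gene. Among these, and named after their values were seen, were *Sept10*, a septin gene, with scores of 71.9 and 49.1, *Sobp* with 76.8 and 32.8, *Gng7*, a G protein gamma subunit gene, with 51.1 and 39.7, *Utrn*, the gene of the dystrophin relative utrophin, with 40.1 and 40.9, and *Syn3*, a synapsin gene, with 22.3 and 38.5. Of the 11 genes, *Srgap1* had a limb peak inside as well, beside 20 of all 89 genes with a glial peak.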
